A study of Mus musculus with 19 samples.

Results

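H19, Igf2, Kcnq1ot1, Cdkn1c, Phlda2 and Slc22a18, imprinted genes at the distal end of mouse chromosome 7, were followed through mouse embryonic stem cells with and without the RNA-binding proteins Trim71 and Lin28a. They were taken by symbol, as the imprinted genes of the adjacent H19-Igf2 and Kcnq1ot1 domains, and all 6 were found among the 21685 genes of the expression table. The set was selected on measured values, the differences between Lin28a-null and Lin28a-intact libraries, so those are described without a test, while the response to Trim71 loss was tested. The cells were male C57BL/6 embryonic stem cells cultured in serum medium containing LIF (leukaemia inhibitory factor) and enriched on magnetic beads for the surface antigen SSEA-1, a mark of undifferentiated cells. Names of the 4 genotypes give Trim71 before Lin28a. WT-WT cells carry floxed, intact alleles of both genes (Trimfl/fl, Lin28afl/fl; n = 4), and KO-WT cells lack Trim71 (Trim-/-, Lin28afl/fl; n = 4). WT-KO cells lack Lin28a (Trimfl/fl, Lin28a-/-; n = 5), and KO-KO cells lack both (Trim-/-, Lin28a-/-; n = 5). Trim71 was deleted by exposing the floxed cells to 500 nM 4-hydroxytamoxifen for 2 days, and culture went on for at least 7 days more. The labels do not say whether Trim71-intact cells received the drug or its vehicle. Clones 1 and E3 were Lin28a-intact and clones 1-4 and C1 were Lin28a-null, so Lin28a state and clone cannot be told apart. The libraries came from 5 harvest days, and the labels do not say that they came from separate cultures, so p-values measure only the spread between these libraries.

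An imprinted gene is expressed mainly from the copy inherited from 1 parent. At the H19-Igf2 domain, an imprinting control region binds CTCF on the unmethylated maternal copy, which keeps shared enhancers away from Igf2 and leaves them to H19; on the methylated paternal copy Igf2 is expressed and H19 is silent. At the neighbouring domain, the long RNA Kcnq1ot1 is transcribed from the paternal copy and silences Cdkn1c, Phlda2 and Slc22a18 there, so these 3 genes are expressed from the maternal copy. Lin28a blocks the maturation of the microRNA let-7 and also binds mRNAs, and Trim71 is an RNA-binding ubiquitin ligase that let-7 represses. The cells are of 1 inbred strain and the values sum both parental copies, so which copy was transcribed is not shown by these data.

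The values are the deposited normalised levels on a log2 scale, where 1 unit is a 2-fold difference. Base 2 was inferred from the values, day differences had already been removed from them, and library depth is unknown. The deposited table gives KO-WT 1 further library whose values are an average of its 4 group mates, and it was left out. The labels held up on the targeted transcripts: Trim71 differed by -1.31 and -1.38 after its loss in Lin28a-intact and Lin28a-null cells, and Lin28a by -1.65 and -1.56 after its own loss in Trim71-intact and Trim71-null cells, with no overlap of libraries. Of 10 embryonic stem cell markers all 10 were in the table, and their summed level, in normalised units (2 raised to the deposited value), ran from 39430 to 41522 in WT-WT, 42303 to 45314 in KO-WT, 49189 to 54790 in WT-KO and 52384 to 55345 in KO-KO.

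H19 is a long non-coding RNA that also carries the hairpin of miR-675. Both mature arms of that microRNA are shown because H19 is their precursor; bases 2 to 8, the seed, are in capitals.
miR-675-5p: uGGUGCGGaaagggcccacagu
miR-675-3p: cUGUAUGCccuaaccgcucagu
The sequences are RefSeq's on GRCm38.p6, at chr7:142577112-142577133 and chr7:142577078-142577099 on the minus strand. In the GENCODE annotation of the same assembly, 3 of 7 H19 transcripts hold both arms, at positions 1011 and 1045 of the longest, which has 2286 bases. The microRNA itself was not measured, since the table lists no Mir675 row.

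Because Lin28a acts on let-7, the let-7 seed match was looked up in the members. It is the complement of this seed, shown for one member of the let-7 family.
let-7g-5p: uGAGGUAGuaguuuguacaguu
The match, CTACCTC on the transcript strand, was absent from all 7 transcripts of H19, all 5 of Cdkn1c and all 3 of Phlda2. It was present in 6 of 9 Igf2 transcripts, all 5 Slc22a18 transcripts and 8 times in the single Kcnq1ot1 transcript of 93092 bases. Of genes whose longest transcript is within 10% of the length of H19, Igf2 or Slc22a18, 18.9%, 29.2% and 10.7% hold it. For the lengths of Cdkn1c and Phlda2 the shares are 14.0% and 4.44%. For that of Kcnq1ot1, 2 of 2 genes hold it, Kcnq1ot1 included. The sites first met in Igf2 transcripts of 4722 and 3970 bases and in a Slc22a18 transcript of 1552 bases are printed here with the match in capitals, since these genes stood on opposite sides of WT-WT in Lin28a-null cells.
Igf2, position 237: tcctcctctatCTACCTCaacaccccattc
Igf2, position 664: gagggacgtgtCTACCTCtcaggccgtact
Slc22a18, position 1055: gcacaggctggCTACCTCatgtccttcttc
A match is a string of letters and not evidence of binding.

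Loss of Lin28a was accompanied by low H19 and Igf2, lower Kcnq1ot1 and Cdkn1c, and higher Phlda2 and Slc22a18. H19 read 11.10, 11.24, 10.998 and 11.52 in the WT-WT libraries. It read 6.03, 5.89, 6.03, 6.15 and 6.43 in the WT-KO libraries. The lowest Lin28a-intact library thus lay far above the highest Lin28a-null one. The means were 11.22 ± 0.228 (SD, n = 4) and 6.11 ± 0.205 (n = 5), a log2 difference of -5.11 ± 0.140 (SE), or 34.5-fold lower. In Trim71-null cells H19 read 10.77, 10.70, 10.76 and 10.49 with Lin28a and 5.85, 5.79, 5.68, 5.75 and 5.22 without it. That difference was -5.02 ± 0.140, or 32.5-fold lower, and KO-KO against WT-WT gave -5.56 ± 0.140, or 47.1-fold lower. H19 had the most negative difference of all 14988 genes in the fit in each of these 3 comparisons, which share libraries and are not independent of one another. The order of the genotype means was WT-WT, KO-WT, WT-KO and KO-KO, and the libraries of no 2 neighbours in that order overlapped.

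**Figure D1:**
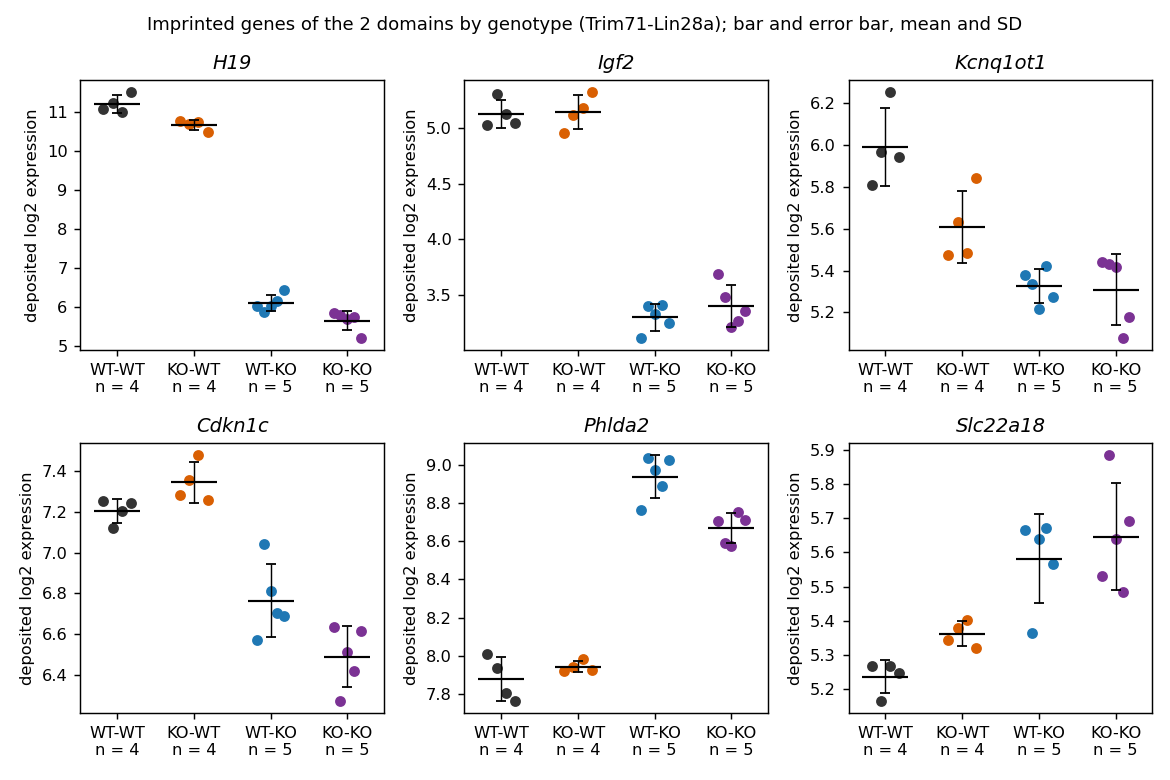
Deposited log2 expression (vertical axis) of the 6 imprinted genes in each library (points) of the 4 genotypes, Trim71 state first, with the mean as a bar and the SD as an error bar; each panel has its own axis, which does not start at 0. H19 has a mean of 11.22 in WT-WT and 6.11 in WT-KO, Igf2 5.13 and 3.30, and Phlda2 7.88 and 8.94.

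Igf2 encodes insulin-like growth factor 2, a growth factor of the embryo and placenta. Its WT-WT libraries stood at 5.03, 5.31, 5.12 and 5.05 and its KO-WT libraries at 4.96, 5.12, 5.18 and 5.32. The WT-KO libraries stood at 3.12, 3.41, 3.33, 3.41 and 3.25, and the KO-KO libraries at 3.69, 3.49, 3.22, 3.27 and 3.35. The Lin28a-intact and Lin28a-null libraries were separated by more than a full log2 unit, and the 2 Trim71 states overlapped within each. Lin28a loss came with a difference of -1.83 ± 0.112 in Trim71-intact cells (3.54-fold lower) and -1.74 ± 0.112 in Trim71-null cells (3.34-fold lower). Igf2 reached the minimum level of 10 normalised units in 14 of 18 libraries, against 18 of 18 for each of the other 5 genes. H19 and Igf2, which are expressed from opposite parental copies, were thus both low in Lin28a-null cells. Around the genotype and day means, over 18 libraries, their deviations had a correlation of -0.02.

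Kcnq1ot1 is the paternally transcribed long RNA of the second domain. It stood at 5.81, 5.97, 6.25 and 5.94 in WT-WT and at 5.38, 5.34, 5.22, 5.42 and 5.27 in WT-KO. The difference was -0.67 ± 0.113 with no overlap. In Trim71-null cells it stood at 5.47, 5.63, 5.48 and 5.84 with Lin28a and at 5.44, 5.43, 5.42, 5.08 and 5.18 without it. These libraries were also separate, by 0.03 at the closest, and the difference was -0.30 ± 0.113. The size of that difference was not stable: it was -0.19 without KO-WT replicate 4, -0.48 with trends of GC content and length removed, and -0.57 in clones 1 and 1-4 against -0.22 in clones E3 and C1. The 2 Lin28a-null genotypes, with means of 5.33 and 5.31, did not differ beyond their spread.

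Cdkn1c encodes the cell cycle inhibitor p57, a restraint on embryonic growth. It stood at 7.25, 7.12, 7.20 and 7.24 in WT-WT and at 6.57, 7.04, 6.81, 6.70 and 6.69 in WT-KO, a difference of -0.44 ± 0.0977. Of the WT-KO libraries, replicate 2 came within 0.1 of the lowest WT-WT library, and the groups did not overlap. In Trim71-null cells Cdkn1c stood at 7.28, 7.36, 7.47 and 7.26 with Lin28a and at 6.64, 6.27, 6.51, 6.42 and 6.61 without it, a difference of -0.85 ± 0.0977. KO-WT had the highest mean and KO-KO the lowest.

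Phlda2 encodes a pleckstrin homology protein that limits placental growth, and it differed the other way. It stood at 8.01, 7.93, 7.80 and 7.76 in WT-WT and at 8.77, 9.04, 8.97, 8.89 and 9.03 in WT-KO. Every Lin28a-null library lay above every Lin28a-intact one, and the difference was 1.06 ± 0.0689, or 2.09-fold higher. The KO-WT libraries stood at 7.92, 7.94, 7.98 and 7.92 and the KO-KO libraries at 8.71, 8.59, 8.58, 8.75 and 8.71, a difference of 0.73 ± 0.0689. WT-WT and KO-WT did not differ beyond their spread.

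Slc22a18 encodes a membrane transporter of the organic cation family and was the member with the smallest range, 0.41 between the lowest and the highest genotype mean. It stood at 5.27, 5.17, 5.27 and 5.25 in WT-WT and at 5.67, 5.36, 5.64, 5.67 and 5.57 in WT-KO, a difference of 0.35 ± 0.0905. In KO-WT it stood at 5.34, 5.38, 5.40 and 5.32 and in KO-KO at 5.53, 5.88, 5.64, 5.48 and 5.69, a difference of 0.28 ± 0.0905, which was 0.18 without KO-KO replicate 2. The Lin28a-null libraries were all above the Lin28a-intact ones of the same Trim71 state.

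Counted together, 6 of 6 members had no overlap between Lin28a-intact and Lin28a-null libraries in Trim71-intact cells, 4 lower and 2 higher. Over all 14988 genes the share without overlap was 40.8%, with 20.7% lower and 20.1% higher. In Trim71-null cells it was again 6 of 6, with 4 lower and 2 higher, against 40.7% of all genes, 20.8% lower and 19.8% higher. KO-KO against WT-WT gave 6 of 6, against 44.5%. A difference of at least 2-fold was reached by 3 members in Trim71-intact cells (H19, Igf2 and Phlda2) and by 2 in Trim71-null cells (H19 and Igf2), where 1.35% and 1.39% of all genes reached it. These contrasts chose the members, and nothing is read from the counts. All members kept their direction in every same-day comparison of Lin28a-null with Lin28a-intact libraries, 4 days in each Trim71 state.

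The neighbours were looked up as well, and how far along the chromosome any pattern ran was not tested. Of 27 neighbouring genes listed for the 2 domains, 22 were in the table and 15 were tested. After Lin28a loss in Trim71-intact cells, 3 were called higher and 6 lower at an adjusted p-value under 0.05 in limma, a linear model fitted over all genes, and 6 were not called; 42.4% of all genes were called. Their median difference was -0.08, against -0.01 over all tested genes. The largest falls were those of Ascl2, a trophoblast transcription factor that is itself imprinted (-1.04, limma adjusted p = 1.8e-06), Tspan32, a tetraspanin (-0.98, adjusted p = 0.0048), and Osbpl5, an oxysterol-binding protein gene (-0.80, adjusted p = 4.8e-06). In Trim71-null cells 2 were higher and 8 lower, where 42.8% of all genes were called. Nap1l4, next to Phlda2, differed by -0.03 and -0.08 in the 2 Trim71 states and was not called, and Mrpl23, on the other side of H19, differed by 0.08 and -0.13 and was not called. Beyond Nap1l4, Cars had means of 10.34 in WT-WT and 10.79 in WT-KO, and Tnfrsf22 6.45 and 6.79, both higher without overlap. Osbpl5, which fell, lies on that side too.

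**Figure D2:**
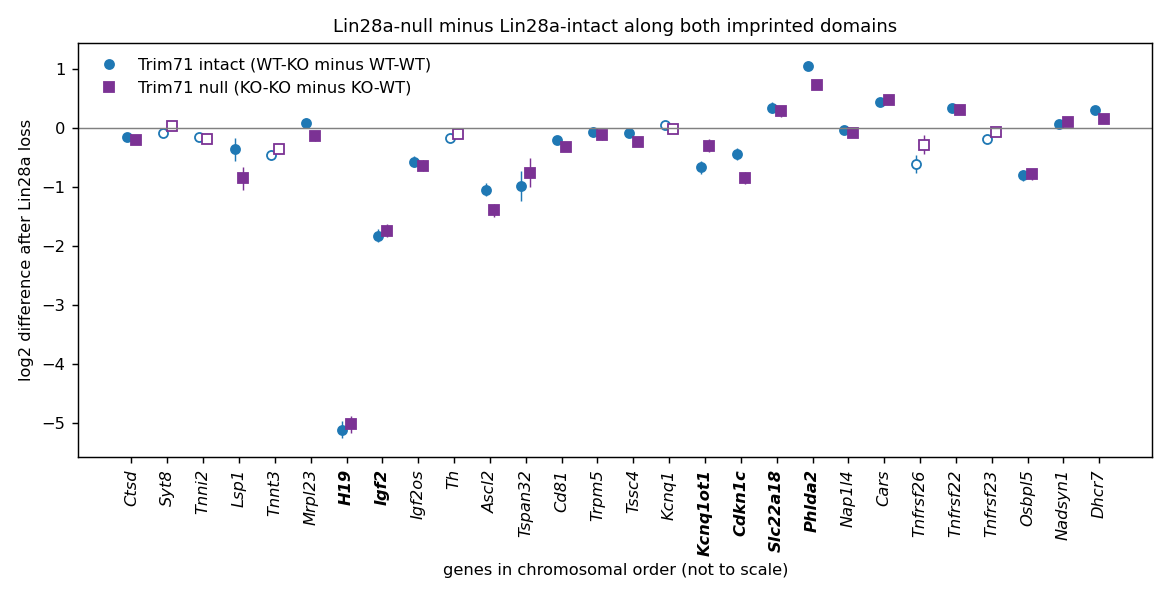
Log2 difference between Lin28a-null and Lin28a-intact libraries (vertical axis, error bars SE) for the members (bold names) and their neighbours in chromosomal order, not to scale, in Trim71-intact cells (circles) and Trim71-null cells (squares); open symbols are genes under the minimum level. H19 (-5.11 and -5.02) and Igf2 (-1.83 and -1.74) lie lowest, and Phlda2 (1.06 and 0.73) highest.

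Several members share their position with other annotated genes, and the library kit does not mark strand, so reads of a member and of a gene on its opposite strand cannot be told apart. Gm27483 and Gm27786, small RNA genes of 71 and 70 bases, lie inside H19 on the opposite strand. They were picked out after the data were seen. Gm27483 differed by -3.71 and -3.62 after Lin28a loss and Gm27786 by -3.66 and -3.48, in Trim71-intact and Trim71-null cells. Their deviations from the genotype and day means followed those of H19 with correlations of 0.91 and 0.92 over 18 libraries, the highest of all genes in the fit. Stk10, Slc35b4 and Gm26751, which do not overlap H19, came close behind at 0.899, 0.897 and 0.894. Correlations of this size are thus not particular to genes inside H19. Gm44732, inside Cdkn1c on the opposite strand, differed by -0.46 and -0.94, close to the values of Cdkn1c itself. Igf2os, which overlaps Igf2 on the opposite strand, differed by -0.57 and -0.64, less than Igf2. Kcnq1, which overlaps Kcnq1ot1 on the opposite strand, stayed at means of 0.58 to 0.65 in all 4 genotypes and was not tested.

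**Figure D3:**
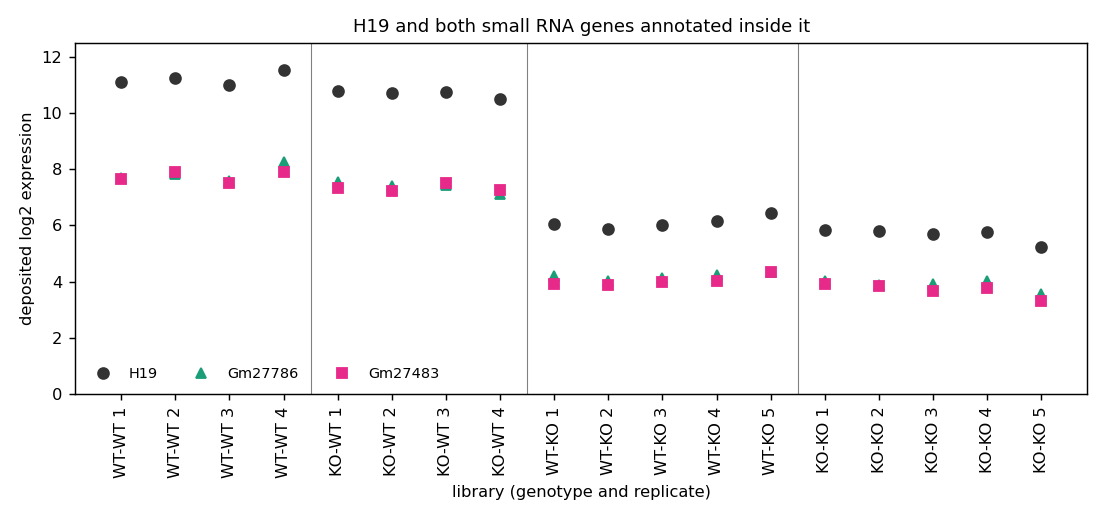
Deposited log2 expression (vertical axis, from 0) of H19 and of Gm27786 and Gm27483, both annotated inside it on the opposite strand, in each of the 18 libraries ordered by genotype and replicate (horizontal axis; grey lines part the genotypes). All 3 stand lower in the Lin28a-null than in the Lin28a-intact libraries, and all 3 are lowest in KO-KO replicate 5.

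Genes were ranked by how near their 4 genotype means, each relative to WT-WT, lay to those of a member whose means spanned at least 1 log2 unit. Nearest to H19 were the keratins Krt18 and Krt8, at distances of 1.82 and 1.92 log2 units, followed by Gm27483, Gm27786 and Cubn, at 2.08, 2.16 and 2.78. No other gene lay as deep as H19: Krt18 differed by -4.20 and Krt8 by -4.22 in WT-KO. Nearest to Igf2 was Id2, an inhibitor of basic helix-loop-helix factors, at 0.12, and nearest to Phlda2 was 4930432K21Rik at 0.17. These distances describe 4 means and carry no test.

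Krt8 and Krt18 belong to a list of trophectoderm markers, and most tested markers of both early extraembryonic lineages were also lower in Lin28a-null cells. The summed level of 13 trophectoderm markers found of 15 ran from 4972 to 6541 normalised units in WT-WT and from 4921 to 5949 in KO-WT, but from 1275 to 1511 in WT-KO and from 1107 to 1379 in KO-KO. Krt8 and Krt18, with WT-WT means of 10.96 and 10.80, are the highest of these markers and weigh most in that sum. After Lin28a loss in Trim71-intact cells 8 of 10 tested markers were called lower and none higher, and Trim71-null cells gave the same counts. Of all genes 42.4% and 42.8% were called in these 2 comparisons. In Trim71-intact cells the falls were led by Krt8, Krt18, Krt7 (-3.19) and the transcription factor Hand1 (-2.88). The transcription factors Eomes and Tfap2c were not lower, with means of 5.30 and 9.69 in WT-WT and 5.43 and 9.82 in WT-KO. Cdx2, a defining transcription factor of trophectoderm, was under the minimum level with means of 2.04 to 3.06, Elf5 stood at means of 0.80 to 0.95, and Tpbpa and Prl3d1 had no row. For primitive endoderm, 15 of 17 markers were found, with sums of 12114 to 13599 in WT-WT, 12936 to 15554 in KO-WT, 5392 to 6677 in WT-KO and 6149 to 7367 in KO-KO. Here 13 of 13 tested markers were called lower in Trim71-intact cells, led by Cubn (-3.74), Col4a2 (-2.85) and Dab2 (-2.78). In Trim71-null cells 11 of 13 were called lower and none higher. Sums of 6 fibroblast markers found of 12, for cells of a feeder layer, were low throughout and ran from 178 to 269 with Lin28a and from 102 to 128 without it. The embryonic stem cell markers went the other way, with 7 of 9 tested called higher and none lower in Trim71-intact cells after Lin28a loss. In Trim71-null cells 4 were higher and 1 lower. The shares of all genes called were again 42.4% and 42.8%. In bulk libraries, fewer cells of a type and less RNA per cell cannot be told apart, and the part of these markers in the levels of the 6 genes was not tested. After Trim71 loss, of 10 trophectoderm markers none was called in Lin28a-intact cells and 1 was lower in Lin28a-null cells. Of 13 primitive endoderm markers 1 and 2 were called higher, and of 9 embryonic stem cell markers 2 and 2. Of all genes 11.2% and 8.38% were called in these comparisons.

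The genes were chosen on the Lin28a differences, but with earlier results of these same libraries known. Trim71 loss moved few of them and by little. H19 fell in both Lin28a states and Phlda2 fell in Lin28a-null cells; the other results did not pass the test. In Lin28a-intact cells 1 of 6 members was called, H19, against 11.2% of all genes in either direction and 6.43% lower. There were 3 members without overlap between the genotypes, against 28.2% of all genes. In Lin28a-null cells 2 of 6 were called, H19 and Phlda2, both lower, against 8.38% of all genes and 4.12% lower, and the same 2 genes had no overlap, against 12.6%. Counts of 1 and 2 among 6 genes do not set the members apart from that background.

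With Lin28a intact, H19 fell by 0.54 ± 0.152 on the log2 scale (SE, 1.45-fold lower; limma adjusted p = 0.0349). The difference was negative in 3 of 3 same-day pairs, from -1.03 to -0.24. In Lin28a-null cells it fell by 0.45 ± 0.130 (1.36-fold lower; limma adjusted p = 0.0424), and was negative in 5 of 5 pairs, from -1.22 to -0.09. By size of fall H19 was gene 120 and gene 91 of 14988. Both calls lay near the threshold. Lin28a itself differed by -0.28 after Trim71 loss in Lin28a-intact cells (adjusted p = 0.036) and by -0.19 in Lin28a-null cells (0.097), and its part in the H19 result was not tested. The first was lost when any of 7 of the 18 libraries was left out (WT-WT replicates 2 and 4, WT-KO replicate 1, KO-KO replicate 2 and KO-WT replicates 2, 3 and 4), with adjusted p-values up to 0.142. The second was lost without any of 10 (WT-WT replicate 2, WT-KO replicates 1, 3, 4 and 5, KO-KO replicates 2, 3, 4 and 5 and KO-WT replicate 2), with adjusted p-values up to 0.138. Without KO-KO replicate 5, the lowest H19 library, the second difference was -0.30. By clone, the difference in Lin28a-intact cells was -0.37 in clone E3 and -0.85 in clone 1, which holds a single KO-WT library, and in Lin28a-null cells it was -0.28 in clone C1 and -0.70 in clone 1-4; none of the 4 passed the test alone.

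The small RNA genes inside H19 lay in the same direction without passing the test. Gm27483 differed by -0.41 (limma adjusted p = 0.077) and -0.32 (0.13) after Trim71 loss in Lin28a-intact and Lin28a-null cells. Gm27786 differed by -0.47 (0.057) and -0.29 (0.19).

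Phlda2 differed by 0.06 ± 0.0745 in Lin28a-intact cells (limma adjusted p = 0.602), with a 95% confidence interval from -0.09 to 0.22. In Lin28a-null cells it fell by 0.27 ± 0.0638 (1.21-fold lower; limma adjusted p = 0.0157) and was lower in 5 of 5 pairs, from -0.45 to -0.06. The call was lost without WT-KO replicate 5, KO-KO replicate 2 or KO-KO replicate 3, with adjusted p-values up to 0.0628, and in clones C1 and 1-4 taken alone, where the differences were -0.33 and -0.19.

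Kcnq1ot1 and Cdkn1c came near the threshold in 1 Lin28a state each. Kcnq1ot1 differed by -0.38 ± 0.122 in Lin28a-intact cells (limma adjusted p = 0.0521) and was lower in 3 of 3 pairs, with overlapping libraries. It was called when 1 of 5 libraries was left out (WT-WT replicate 1, WT-KO replicate 3, KO-KO replicates 1 and 4 and KO-WT replicate 4), with adjusted p-values down to 0.0303. Without WT-WT replicate 3 it was -0.26, with the highest adjusted p of these fits, 0.220. By clone it was -0.59 in E3 and 0.00580 in clone 1, which holds a single KO-WT library. Over 14724 genes, the difference in this comparison had a rank correlation of 0.51 with GC content. After removal of the trends with GC content and length, that of Kcnq1ot1 was -0.03 (limma adjusted p = 0.829). Both trends were removed together, so the change cannot be assigned to GC content or to length. The Kcnq1ot1 transcript has 93092 bases, and only 2 genes, itself included, are of like length. Its length trend therefore rests on few genes near that length. Under the same removal H19 kept its calls, at -0.59 and -0.44. In Lin28a-null cells Kcnq1ot1 differed by -0.02 ± 0.104 (adjusted p = 0.948, 95% interval from -0.24 to 0.20). Cdkn1c differed by 0.14 ± 0.106 in Lin28a-intact cells (limma adjusted p = 0.401) and by -0.27 ± 0.0904 in Lin28a-null cells (0.0749), lower in 4 of 5 pairs. Without WT-KO replicate 1 the latter was called (adjusted p = 0.0393), and without WT-KO replicate 2 the difference was -0.17; over all libraries left out in turn the adjusted p reached 0.252. By clone it was -0.45 in C1 and -0.0059 in 1-4.

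Igf2 and Slc22a18 gave no call in either state. Igf2 differed by 0.02 ± 0.121 (limma adjusted p = 0.942, 95% interval from -0.24 to 0.27) and 0.10 ± 0.103 (0.611, interval from -0.12 to 0.32). The intervals leave differences of either sign within those bounds unresolved. Slc22a18 differed by 0.13 ± 0.0978 (0.418) with no overlap of libraries and by 0.06 ± 0.0837 (0.710) with overlap.

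**Figure D4:**
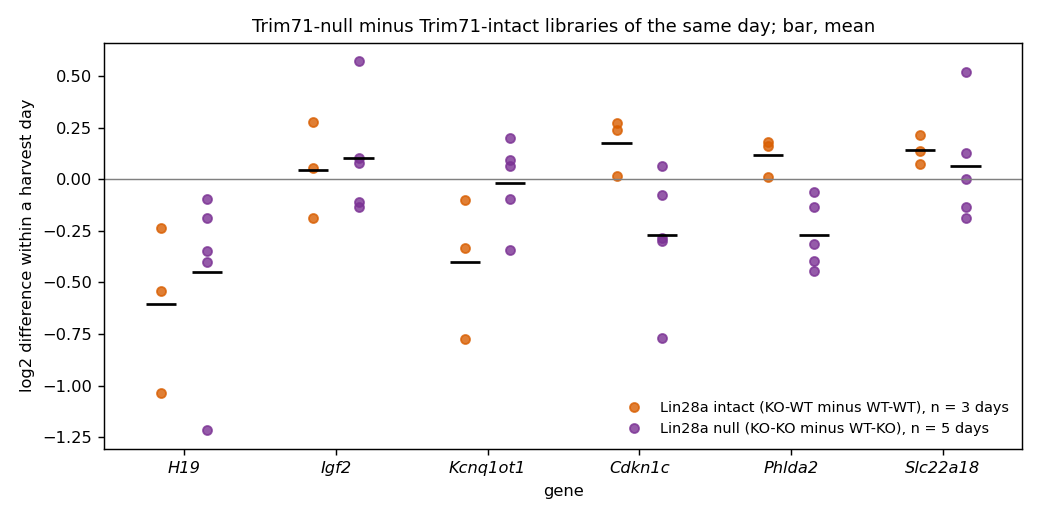
Log2 difference between Trim71-null and Trim71-intact libraries of the same harvest day (points, vertical axis; bar, mean of the points) for the 6 genes in Lin28a-intact cells (orange, 3 days) and Lin28a-null cells (purple, 5 days). H19 lies below 0 on every day, and Phlda2 lies above 0 on each of 3 days and below 0 on each of 5.

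Whether the response to Trim71 loss depends on Lin28a was tested as the interaction of both losses. None of the 6 members was called by limma, and 3 genes were called among all 14988 (0.02%), with 2256 at an unadjusted p under 0.05. At that unadjusted level stood Phlda2 (-0.33 ± 0.0981, limma adjusted p = 0.213), Cdkn1c (-0.41 ± 0.139, adjusted p = 0.239) and Kcnq1ot1 (0.37 ± 0.160, adjusted p = 0.309). Over 14724 genes the interaction had a rank correlation of -0.50 with GC content. With trends of GC content and length removed, Phlda2 gave -0.20, Cdkn1c -0.28 and Kcnq1ot1 0.04. For H19 the interaction was 0.09 ± 0.200 (adjusted p = 0.871), with an interval from -0.34 to 0.51. Its fall after Trim71 loss was therefore not shown to differ between the Lin28a states.

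Among the 15 tested neighbours, 3 were called higher after Trim71 loss in Lin28a-intact cells, Lsp1 (0.72, limma adjusted p = 0.042), Cd81 (0.26, 0.021) and the protease gene Ctsd (0.21, 0.023), and none lower, where 11.2% of all genes were called. In Lin28a-null cells Ctsd alone was called (0.15, adjusted p = 0.044), against 8.38% of all genes. None of them moved in the direction of H19.

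Promoter sequence was available for 4 of the 6 members in the RefSeq table of GRCm38.p6; H19 and Cdkn1c are named only. Printed here is 1 window for each, 250 bases up to the start site, because these members were lower (Igf2, Kcnq1ot1) or higher (Phlda2, Slc22a18) in Lin28a-null cells; of the 4 Igf2 start sites the one with a match is shown. Capitals mark CCAAT and TATAAA, searched on both strands, where ATTGG is CCAAT on the other strand.
Igf2, chr7:142657497-142657746, minus strand: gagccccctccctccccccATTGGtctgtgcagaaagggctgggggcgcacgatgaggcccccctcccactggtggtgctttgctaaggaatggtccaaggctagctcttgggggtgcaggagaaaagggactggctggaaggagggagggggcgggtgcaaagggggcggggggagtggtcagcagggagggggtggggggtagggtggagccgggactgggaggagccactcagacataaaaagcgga
Kcnq1ot1, chr7:143296548-143296797, minus strand: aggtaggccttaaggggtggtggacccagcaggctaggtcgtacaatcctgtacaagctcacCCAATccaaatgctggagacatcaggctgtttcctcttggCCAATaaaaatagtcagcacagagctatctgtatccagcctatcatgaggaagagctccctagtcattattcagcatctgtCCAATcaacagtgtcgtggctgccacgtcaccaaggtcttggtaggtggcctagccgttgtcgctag
Phlda2, chr7:143502525-143502774, minus strand: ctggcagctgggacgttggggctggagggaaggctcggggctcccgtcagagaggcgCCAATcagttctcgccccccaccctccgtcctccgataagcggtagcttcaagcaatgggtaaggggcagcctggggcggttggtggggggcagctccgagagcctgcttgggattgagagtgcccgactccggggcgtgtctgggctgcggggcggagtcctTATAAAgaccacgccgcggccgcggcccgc
Slc22a18, chr7:143473539-143473788, plus strand: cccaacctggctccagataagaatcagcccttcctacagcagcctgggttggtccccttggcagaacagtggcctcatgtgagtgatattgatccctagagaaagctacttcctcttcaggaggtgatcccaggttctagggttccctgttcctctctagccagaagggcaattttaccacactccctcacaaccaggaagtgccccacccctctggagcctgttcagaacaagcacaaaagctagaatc
Kcnq1ot1 holds CCAAT 3 times, and Phlda2 and this 1 of 4 Igf2 start sites hold it once each; 33.8% of 32851 promoters of the same length hold it. TATAAA was found in Phlda2, and 12.4% of promoters hold it. Slc22a18 holds neither. The Phlda2 window holds 21 CpG, that of Igf2 6, that of Kcnq1ot1 5 and that of Slc22a18 0, against a median of 6 over all promoters. The windows of the other Igf2 start sites hold 1, 10 and 22. These letters say nothing of which factors bound there.

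Genes that act on the Igf2 signal and on imprinted marks were counted from lists drawn up with earlier results of these data known. Of 14 insulin-like growth factor pathway genes 12 were tested, and none was called after Trim71 loss in either Lin28a state. After Lin28a loss in Trim71-intact cells, where 42.4% of all genes were called, 5 of the 12 were higher and 4 lower, among them the binding protein gene Igfbp4 (-1.41, limma adjusted p = 1.5e-07), the imprinted signalling adaptor Grb10 (0.92, 1.1e-05), the receptor substrate Irs2 (-0.79, 5.1e-05) and Igf2bp2, whose product binds Igf2 mRNA (0.68, 2.3e-06). Of 20 regulators of imprinted methylation and repression, all tested, 6 were higher and 6 lower in that comparison, against the same 42.4%. Dppa3, which protects methylation in the early embryo, differed by 0.86 (adjusted p = 3.8e-05), and the de novo methylation genes Dnmt3l and Dnmt3a by -0.71 (1.7e-05) and -0.54 (0.00066). After Trim71 loss 1 of the 20 was higher and 1 lower with Lin28a, and 1 was higher without it, where 11.2% and 8.38% of all genes were called.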

How the data were processed

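The 6 genes and all gene lists were chosen with earlier results of these data known. The table holds normalised values from mRNA libraries made with a TruSeq kit and sequenced in paired ends, per the labels' protocols; the submitters' processing notes name CASAVA 1.8, STAR and DESeq2 without a role. Build, annotation and counting are not given in the sources used here. The deposited log2 values, a base inferred from the values, ran from -0.71 to 16.30, and depth is unknown. Their scale dampens weakly expressed genes, so fold sizes hold for the deposited scale only. Day effects had been removed by the time of deposit: no gene kept a day term above 1.7e-08. KO-WT replicate 5 was left out, as it differed from the average of the 4 further KO-WT libraries by at most 1.5e-08.

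Genes with at least 10 normalised units in at least 4 of 18 libraries (14988, or 69.1%) were fitted with limma 3.58.1 in R 4.3.3, with genotype and harvest day as terms and 10 residual degrees of freedom. Benjamini-Hochberg adjusted p-values under 0.05 were called. Fits were tested on simulated data in which 200 genes among 14988 were changed by 1 log2 unit. Of these, 100% and 99.5% were recovered for Trim71 loss in Lin28a-intact and Lin28a-null cells, and 4.76% and 4.33% of calls were false. Recovery of smaller differences, such as those of the members after Trim71 loss, was not simulated. Day is the pairing given by the labels; a correlation check of same-day libraries is void, since the day effect had been removed. Named list genes are the called ones with the largest differences. Nap1l4, Mrpl23, Cars, Tnfrsf22, Cdx2, Elf5, Eomes, Tfap2c and genes overlapping a member were named after their values were seen. Alternatives were no day term, no filter, another scaling, removal of GC content and length trends, each clone pair, days with all genotypes, the 2 genotypes alone, KO-WT replicate 5 put back and leaving out each library.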

Additional observations from a re-analysis of the deposited data

Results flagged for a closer look

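H19 in KO-KO replicate 5 stood at 5.22, while the other 4 KO-KO libraries lay at 5.68 or above; the gap to the nearest of them was 0.74 of the whole range of the 5 libraries. Chance sets about 1 library group in 20 apart by this measure. It was applied to each of the 6 members in each of the 4 genotypes, and no other group was flagged. A flag in a search of that size is not unusual. Gm27483 and Gm27786, annotated inside H19, were also lowest in that library, at 3.31 and 3.55.

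After Trim71 loss Phlda2 was higher in all 3 same-day pairs with Lin28a intact and lower in all 5 without Lin28a. The smallest of the 3 differences was 0.0090, and the libraries of these genotypes overlapped. With GC content and length trends removed, the fitted difference with Lin28a intact was -0.055. The interaction was -0.33 on the log2 scale and was not called (limma adjusted p = 0.213).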

How the results depend on the processing

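The H19 differences after Lin28a loss moved under no alternative by more than the spread between libraries; with each library left out they ran from -5.23 to -4.97 in Trim71-intact cells, -5.11 to -4.86 in Trim71-null cells and -5.66 to -5.40 for loss of both. For the other members the Kcnq1ot1 difference without Trim71 (-0.30) moved to -0.48 with GC content and length trends removed and -0.57 in clones 1 and 1-4; in those clones Cdkn1c gave -0.61 and -0.62 in the 2 Trim71 states and Igf2 -1.52 for loss of both, and on days with all 4 genotypes Igf2 gave -1.93 without Trim71. Calls after Trim71 loss were less stable. In Lin28a-intact cells 1 member was called; without the replicate block (no day term) and with 75th percentile scaling 2 were called, Kcnq1ot1 having joined (adjusted p = 0.00928 and 0.0477), and 0 were called in clones E3 and C1 alone, in clones 1 and 1-4 alone, on days with all 4 genotypes and with only the 2 genotypes compared, all with fewer libraries. With a library left out, 0 to 2 were called. In Lin28a-null cells 2 were called; 1 was called without a filter (H19 adjusted p = 0.052) and with only the 2 genotypes compared (0.0906), 0 in either clone pair and on days with all 4 genotypes, and 0 to 2 with a library left out. Without the replicate block Cdkn1c gained a call (0.0209). For the interaction 0 members were called, 1 (Phlda2, 0.0314) without the replicate block, and 0 with any library left out. The fit without the block ignores degrees of freedom used by the removed day effect. On simulated data with 200 changed genes, 31.3% and 26.5% of its calls for Trim71 loss with and without Lin28a were false. Its calls for the interaction were not simulated. Calls over all genes were 1674, 1256 and 3 with the block and 4219, 2618 and 673 without it.

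Several uncalled differences changed sign, among them those of Kcnq1ot1 after Trim71 loss with Lin28a (-0.38) and for the interaction (0.37), which were near 0 in clones 1 and 1-4. With GC content and length trends removed, Igf2 gave -0.044 and Phlda2 -0.055 after Trim71 loss with Lin28a, Kcnq1ot1 0.0088 without Lin28a, and Slc22a18 0.020 for the interaction. In clones E3 and C1, Igf2 gave -0.14 and -0.056 in the 2 Lin28a states. In clones 1 and 1-4, Cdkn1c gave -0.0047 and Kcnq1ot1 0.00580 with Lin28a, Slc22a18 -0.0051 without it, and Kcnq1ot1 -0.023 for the interaction. On days with all 4 genotypes, Igf2 gave -0.047 and Slc22a18 -0.021 without Lin28a, and the interaction was -0.050 for H19 and -0.094 for Igf2. Leaving out a library gave ranges that cross 0 for Igf2 (-0.070 to 0.11 with Lin28a, -0.0065 to 0.16 without, -0.018 to 0.17 interaction), Kcnq1ot1 (-0.067 to 0.061 without Lin28a), Slc22a18 (-0.026 to 0.12 without Lin28a) and H19 for the interaction (-0.064 to 0.24). The cause was not tested. Read depth is unknown, so no limit of detection is given.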

Other observations

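Apart from the members, 41 other imprinted genes had been listed, of which 38 were in the table and 33 were tested. Th, in the table but not tested, is also among the neighbours of the 2 domains. After Lin28a loss 5 were called higher and 15 lower in Trim71-intact cells, and 6 higher and 12 lower in Trim71-null cells, where 42.4% and 42.8% of all genes were called. Their medians were -0.17 and -0.12, against -0.01 and -0.000818 over all genes. Peg10, a retrotransposon-derived gene needed for the placenta, differed by -2.66 in Trim71-intact cells (limma adjusted p = 2.7e-11), its neighbour Sgce by -1.41 (8.1e-09), Peg13 by -1.18 (2.7e-08) and the non-coding RNA Rian by -1.01 (8.4e-07). Each of these differences was smaller than that of H19 (-5.11) in the same comparison, and that of Peg10 was larger than that of Igf2 (-1.83).

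After Trim71 loss with Lin28a intact, 2 of these genes were higher and 4 lower. Rian and Meg3, non-coding RNAs of the same imprinted cluster, differed by -0.74 (limma adjusted p = 0.00081) and -0.74 (0.0027), more than H19 did (-0.54). Without Lin28a, 2 were higher and 2 lower, and Rian and Meg3 differed by -0.23 (0.14) and -0.25 (0.17).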
